A study of Homo sapiens with 2 samples.

Results

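Progress from G1 into S phase is set by cyclin D bound to CDK4 or CDK6, and by the small proteins that bind these complexes. D cyclins are made in response to growth factor signals, and their complexes with CDK4 or CDK6 phosphorylate the retinoblastoma protein RB, which releases E2F transcription factors. INK4 inhibitors (p15, p16, p18 and p19) bind CDK4 and CDK6 themselves. CIP/KIP inhibitors (p21 and p27) bind cyclin-CDK complexes, block CDK2, and also help cyclin D to assemble with its kinase. PI3K and AKT signalling is known to act on the group at several points, for example by restraining the FOXO factors that transcribe the p27 gene.

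The 9 genes described here are the D cyclin genes CCND1 and CCND3, the kinase genes CDK4 and CDK6, the INK4 genes CDKN2B, CDKN2C and CDKN2D, and the CIP/KIP genes CDKN1A and CDKN1B. They were taken by name, by matching each Ensembl gene identifier to its symbol, and are 9 of 60623 genes listed. RNA came from OCI-AML3, an established line from a human acute myeloid leukaemia with myelomonocytic features, whose genotype the labels give as WT for both cultures. A DMSO culture served as control for a culture kept for 24 h in 50 nM omipalisib (GSK2126458), an inhibitor of class I PI3K and of mTOR, and both cultures were kept in MEM alpha with serum. There was 1 strand-specific RNA sequencing library per treatment, so the differences below have no replicate check, no p-value is given, and each comparison is of 2 libraries rather than of the treatments.

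Counted fragments summed to 26367832 in the DMSO library and to 22599164 in the omipalisib library. Of 8 myeloid marker genes, 7 reached 1 CPM (the count relative to the library total, before TMM scaling) in DMSO and 8 did so in omipalisib, and their summed level was 1178 and 1343 CPM. The lymphoid markers CD3E, CD3D, MS4A1 and CD2 and the erythroid and platelet markers HBB and PF4 had 0 counts in both libraries, which allows up to 0.114 CPM in DMSO and 0.133 CPM in omipalisib. The summed lymphoid level was 0.721 and 0.841 CPM, and the summed erythroid and megakaryocyte level was 0.910 and 1.86 CPM. Among stromal and epithelial markers EPCAM and KRT19 had at most 1 count, while the collagen gene COL1A2 had 2507 and 1564. CSF1R, the receptor for macrophage colony-stimulating factor, had 834 and 2332 counts, and its part in the values below was not tested.

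In the omipalisib library, CDKN2B and CCND1 were far higher than in DMSO, CDKN1B was slightly higher, and both kinase genes, CCND3, CDKN2C and CDKN1A were slightly lower. The p15 gene CDKN2B was 5.57-fold higher (95% interval 4.68 to 6.70) and the cyclin D1 gene CCND1 was 2.27-fold higher (2.12 to 2.43). The 5 lower genes had log2 ratios between −0.35 and −0.22. For CDKN2D the interval included 0. Ratios are omipalisib over DMSO after TMM scaling of the libraries, and each interval is an exact one for counting error only. Here a gene is called higher or lower where that interval excluded a log2 ratio of 0.

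All 9 genes had a summed count of at least 20, as did 15660 genes in all. Of the 9 genes, 3 were higher, against 26.1% of the genes measured, and 5 were lower, against 28.6%. That background balance turns with the scaling, to 30.3% higher and 24.5% lower with total counts and 22.9% and 32.1% under RLE scaling, while the members' counts did not change. CDKN2B and CCND1 were at least 2-fold higher, as were 4.02% of measured genes. Here and below, a gene counts as at least 2-fold higher or lower only where its interval also excluded 0. None of the 9 was at least 2-fold lower, against 1.29% of measured genes. The median log2 ratio of the 9 genes was −0.22 and their mean was 0.25, opposite in sign, while the median over all measured genes was 0.003. With 9 genes chosen by name, these shares describe the set and show nothing particular to it.

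**Figure D1:**
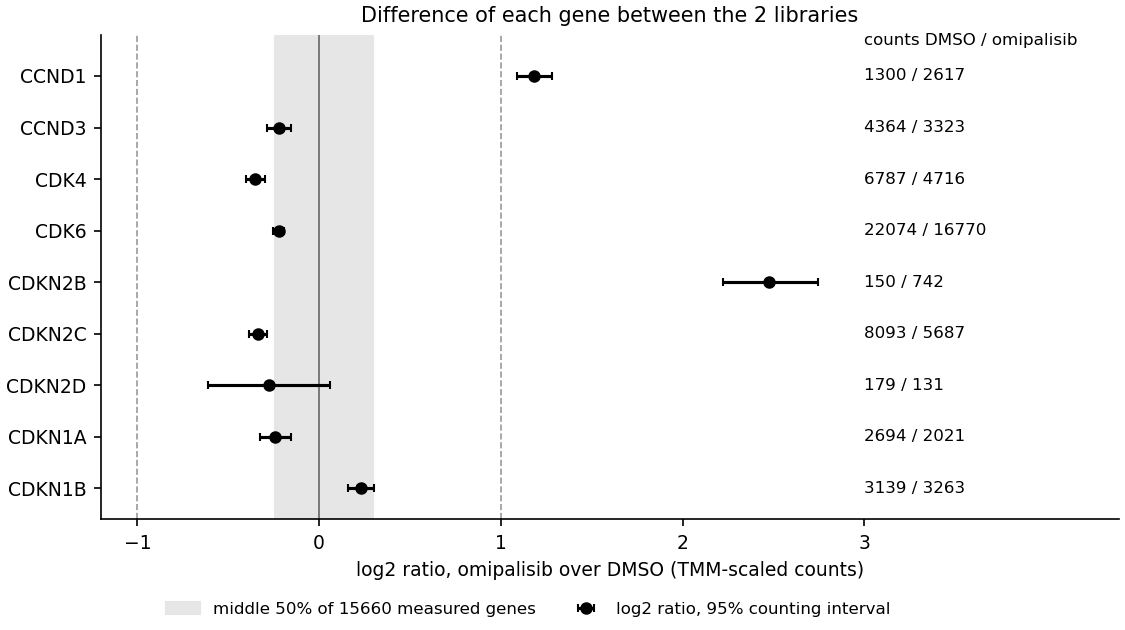
The log2 ratio of each of the 9 genes (horizontal axis) with its 95% counting interval, beside the counts in the DMSO and omipalisib libraries. The grey band is the middle 50% of 15660 measured genes and dashed lines mark a 2-fold ratio: CDKN2B and CCND1 lie beyond it at 2.48 and 1.18, and the other 7 genes lie between −0.35 and 0.23.

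The level of each gene can be set against the others only per length. Here that is TPM, the count divided by the annotated exonic length and scaled to the same sum in each library, with an exact Poisson interval for counting error. In DMSO the order from the highest was CDKN2C at 351 TPM (343 to 359), CDK4 at 287, CDK6 at 236, CDKN1B at 160, CDKN1A at 116, CCND3 at 98.4, CCND1 at 35.2, CDKN2D at 15.6 and CDKN2B at 4.91 (4.15 to 5.76). No neighbours in that order had overlapping intervals. In omipalisib the same genes held the places from the highest to the lowest, except that CDKN2B and CDKN2D changed places at the bottom. CCND3, at 87.8 TPM (84.8 to 90.8), and CCND1, at 83.0 TPM (79.9 to 86.3), then had overlapping intervals, so their order could not be told. By this measure the p18 gene was the highest of the set in both libraries and the p15 gene the lowest in DMSO. Counting included a fragment length check, whose effect on fragments that span introns, and so on levels between genes, could not be examined and lies outside the intervals. The exonic length joins the exons of all annotated forms of a gene. Which forms the cells used was not examined, and this too lies outside the intervals. These are bulk levels, in which fewer cells with a message and less message per cell cannot be told apart.

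**Figure D2:**
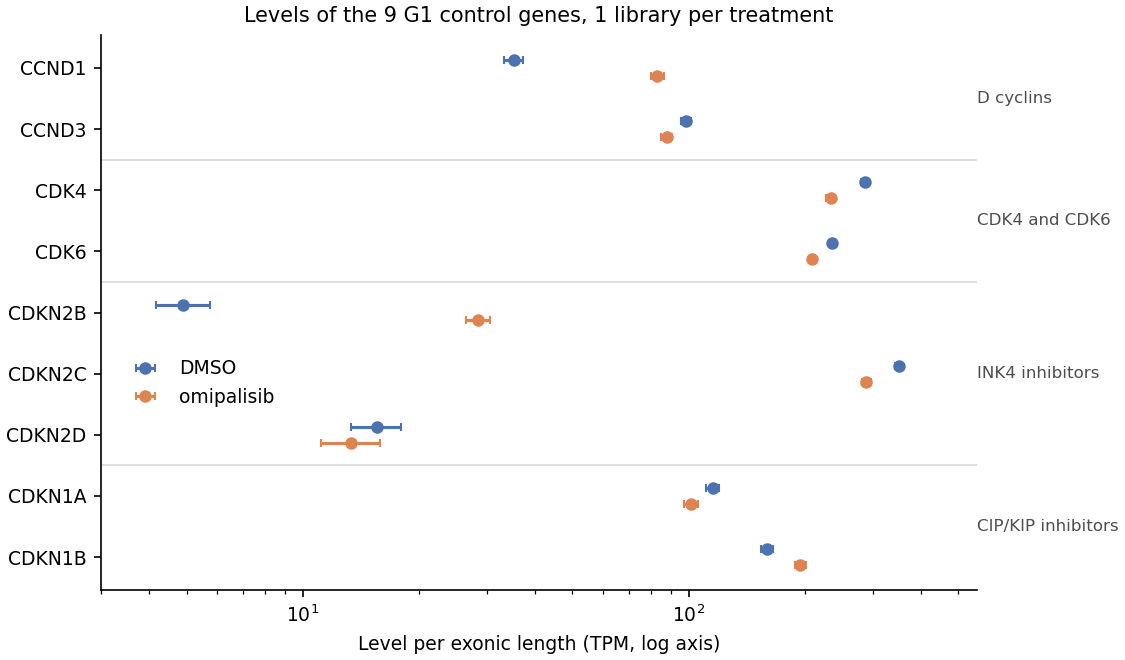
Level of each gene per exonic length, in TPM on a log axis, in the DMSO library (blue) and the omipalisib library (orange), with exact 95% counting intervals. CDKN2B lies at 4.91 TPM in DMSO and 28.4 TPM in omipalisib, and CCND1 moves from 35.2 TPM to 83.0 TPM, next to CCND3.

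Cyclin D1 and cyclin D3, which carry the growth factor signal to CDK4 and CDK6, differed in opposite directions. CCND1 (ENSG00000110092, chromosome 11, 69641087 to 69654474, GRCh38, plus strand) had 1300 counts in DMSO and 2617 in omipalisib. That is a log2 ratio of 1.18 (1.09 to 1.28), and 457 of the 15660 measured genes had a larger ratio. CCND3 (ENSG00000112576, chromosome 6, 41934933 to 42050357, minus strand) had 4364 counts in DMSO and 3323 in omipalisib, giving a log2 ratio of −0.22 with an interval of −0.29 to −0.15. CCND2, the other D cyclin gene, had 0 counts in DMSO and 1 in omipalisib, which is too few for a ratio. Within a library the ratio of CCND1 to CCND3 does not depend on scaling between libraries. It was 0.298 in counts in DMSO and 0.788 in omipalisib, a 2.64-fold difference (exact conditional interval 2.44 to 2.87). Per length, CCND1 made up 26.4% (25.2 to 27.6) of the level of both genes in DMSO and 48.6% (47.3 to 49.9) in omipalisib. The summed level of the D cyclins was 134 TPM and 171 TPM.

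The kinase genes were both lower, CDK4 by slightly more than CDK6, with intervals that did not overlap. CDK4 (ENSG00000135446, chromosome 12, 57747727 to 57756013, minus strand) had 6787 counts in DMSO and 4716 in omipalisib. The log2 ratio was −0.35 (−0.41 to −0.30). CDK6 (ENSG00000105810, chromosome 7, 92604921 to 92836594, minus strand) had 22074 counts in DMSO and 16770 in omipalisib. Its log2 ratio was −0.22 (−0.25 to −0.19). CDK6 took more fragments than any other of the 9 genes, but its annotated exons cover 12260 bases against 3094 for CDK4, and per length CDK4 was the higher. Their order thus rests on the annotated lengths. CDK4 held 54.9% (54.2 to 55.6) of their joint level in DMSO and 52.7% (51.9 to 53.5) in omipalisib. The ratio of CDK4 to CDK6 was 0.915 times that of DMSO (0.877 to 0.954). The joint level of the kinase genes was 523 TPM in DMSO and 443 TPM in omipalisib. Set against it, the D cyclin level was 0.256 in DMSO and 0.385 in omipalisib.

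The 250 bases before the start of CDK4 hold 3 copies of the E-box CACGTG, the palindrome that MYC and MAX bind. An E-box of these letters was found in 6.34% of 35116 promoters of the same length. Each copy is shown because CDK4 is a textbook MYC target, with the E-box in capitals and 12 bases on either side. The sequences are from RefSeq (GRCh38.p14) and run on the minus strand, from chr12:57752509-57752538, chr12:57752489-57752518 and chr12:57752394-57752423. Positions count back from the RefSeq start, and 211 of the 250 bases are UTR in longer annotated forms.
CDK4 site −216 to −211: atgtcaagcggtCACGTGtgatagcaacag
CDK4 site −196 to −191: atagcaacagatCACGTGgctgccatcgcc
CDK4 site −101 to −96: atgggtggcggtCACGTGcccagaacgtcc
MYC had 8106 counts in DMSO and 9694 in omipalisib, and its log2 ratio was 0.43 (0.39 to 0.48). CDK4 and MYC thus differed in opposite directions in these libraries.

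Of the INK4 genes, which encode inhibitors dedicated to CDK4 and CDK6, CDKN2B was higher, CDKN2C was lower, and CDKN2D could not be told from no difference at its depth. CDKN2B (ENSG00000147883, chromosome 9, 22002903 to 22009305, minus strand), the gene for p15, had 150 counts in DMSO and 742 in omipalisib. Its log2 ratio was 2.48 (2.23 to 2.74), and 22 of 15660 measured genes had a larger ratio. In level it moved from above 30.5% of measured genes in DMSO to above 64.6% in omipalisib. CDKN2C (ENSG00000123080, chromosome 1, 50960745 to 50974634, plus strand), the gene for p18, had 8093 counts in DMSO and 5687 in omipalisib. This was a log2 ratio of −0.34 (−0.38 to −0.29). CDKN2D (ENSG00000129355, chromosome 19, 10566460 to 10569059, minus strand), the gene for p19, had 179 counts in DMSO and 131 in omipalisib, and a log2 ratio of −0.28 (−0.61 to 0.06).

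Because CDKN2C was so abundant, the larger CDKN2B message remained a small part of the INK4 pool. That pool holds CDKN2B, CDKN2C and CDKN2D and leaves out CDKN2A, the gene for p16. CDKN2B took 1.78% of the INK4 counts in DMSO (Clopper-Pearson interval 1.51 to 2.09) and 11.3% (10.6 to 12.1) in omipalisib. Per length the shares were 1.32% and 8.60%, with CDKN2C at 94.5% and 87.4%. The summed INK4 level was 371 TPM in DMSO and 331 TPM in omipalisib. Relative to the joint level of CDK4 and CDK6 it was 0.711 and 0.746. The ratio of CDKN2B to CDKN2C was 7.04 times higher in omipalisib (5.88 to 8.47), and that of CDKN2B to CDKN2D was 6.76 times higher (5.03 to 9.08).

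**Figure D3:**
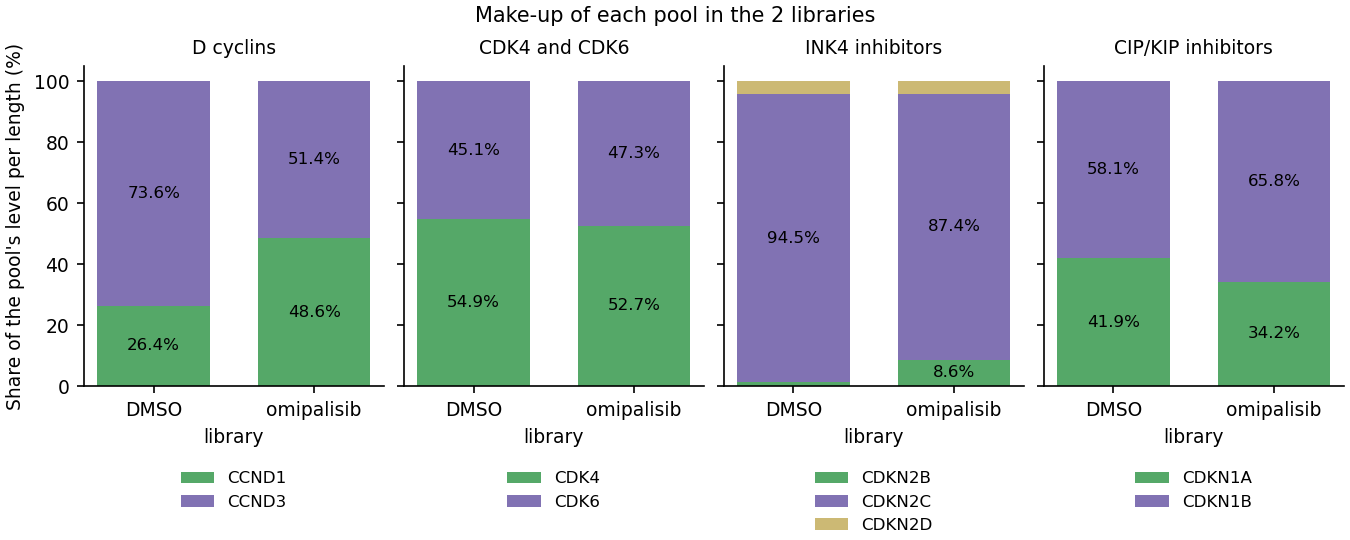
Share of each gene in the level per length of its pool (vertical axis, percent), for D cyclins, CDK4 and CDK6, INK4 (without CDKN2A) and CIP/KIP inhibitors, in the DMSO and omipalisib libraries. CCND1 goes from 26.4% to 48.6% of the D cyclins and CDKN2B from 1.32% to 8.60% of the INK4 inhibitors, while CDK4 and CDK6 keep nearly even shares.

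CDKN2B lies in a cluster with CDKN2A, the gene for p16 and ARF, and with the antisense transcript CDKN2B-AS1, also called ANRIL, which runs across CDKN2B on the opposite strand. CDKN2A had 90 counts in DMSO and 155 in omipalisib, with a log2 ratio of 0.96 (0.57 to 1.35), whose interval lay wholly below that of CDKN2B. CDKN2B-AS1 had 34 counts in DMSO and 29 in omipalisib, with a ratio of −0.05 (−0.82 to 0.70) on the log2 scale, and shares no exonic base with CDKN2B. MTAP, a methionine salvage enzyme gene that lies 65252 bases away, had 4746 counts in DMSO and 3980 in omipalisib. Its log2 ratio was −0.08 (−0.14 to −0.02), and the interval included 0 with scaling by total counts. These were the 3 measured genes within 100 kb. None was at least 2-fold higher, although CDKN2A had a log2 ratio of 1.003 (0.62 to 1.40) with scaling by total counts.

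**Figure D4:**
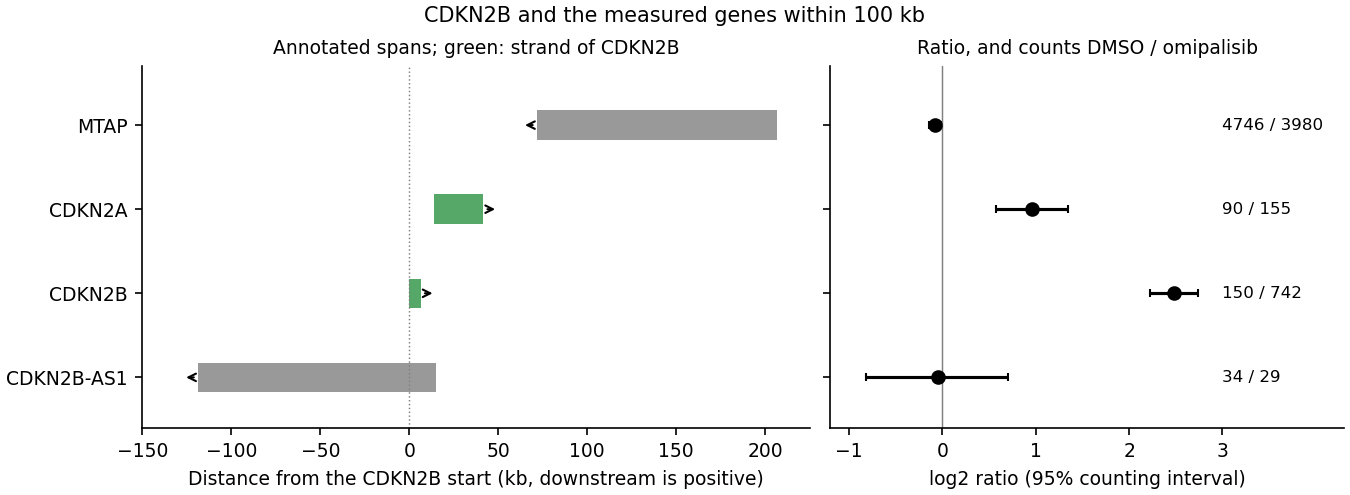
CDKN2B and the measured genes within 100 kb. On the left are the annotated spans by distance from the CDKN2B start in kb, with arrows for the direction of transcription; on the right are log2 ratios with 95% counting intervals and the counts, in which CDKN2B stands at 2.48, CDKN2A at 0.96, and CDKN2B-AS1 and MTAP near 0.

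The bases before the CDKN2B start are shown because this gene had the largest ratio of the 9. They are chr9:22009364-22009555 (RefSeq, GRCh38.p14, minus strand), positions −250 to −59, without the stretch next to the start that GENCODE gives as UTR. Capitals mark the GC box GGGCGG, bound by SP1 and KLF factors, read on either strand.
CDKN2B promoter: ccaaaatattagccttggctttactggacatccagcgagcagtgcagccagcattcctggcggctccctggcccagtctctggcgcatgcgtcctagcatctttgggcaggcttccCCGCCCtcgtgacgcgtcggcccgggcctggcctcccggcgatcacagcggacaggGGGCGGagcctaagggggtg
The 2 GC boxes lie at −134 to −129 and −78 to −73, and 42.6% of all promoters in the table hold at least 1. No other searched motif was found in the window of 250 bases.

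Of the CIP/KIP genes, p21 was lower and p27 higher. CDKN1A (ENSG00000124762, chromosome 6, 36676460 to 36687339, plus strand), the p53-induced gene for p21, had 2694 counts in DMSO and 2021 in omipalisib, and a log2 ratio of −0.24 (−0.33 to −0.16). CDKN1B (ENSG00000111276, chromosome 12, 12715058 to 12722369, plus strand), the gene for p27, had 3139 and 3263 counts. Its log2 ratio was 0.23 (0.16 to 0.30), a 1.17-fold difference, and 4632 measured genes had a larger ratio. CDKN1B held 58.1% (56.8 to 59.3) of the level of both genes in DMSO and 65.8% (64.5 to 67.0) in omipalisib. Their ratio, CDKN1B to CDKN1A, was 1.39 times higher (1.28 to 1.5). Their joint level was 276 and 296 TPM, or 0.528 and 0.669 relative to CDK4 and CDK6.

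The window before CDKN1B holds 2 CCAAT boxes, the site of the factor NF-Y. They are printed with 12 bases on either side, from chr12:12717182-12717210 and chr12:12717306-12717334 on the plus strand (RefSeq, GRCh38.p14), with the box in capitals. Positions count back from the RefSeq start, and 244 of the 250 bases of the window are UTR in longer annotated forms.
CDKN1B site −174 to −170: tcacgcgaccagCCAATctcccggcggcg
CDKN1B site −50 to −46: ccgccgccgcaaCCAATggatctcctcct
A CCAAT box was present in 32.0% of all promoters. Promoter entries matched 8 of the 9 genes, with 13 starts; CCND1 had no entry. Over those 13 windows of 250 bases, both strands were searched and matches could overlap. Some of the windows, among them windows of CCND3 and CDKN2C, had all 250 bases in annotated UTR. A GC box was found in 10, a CCAAT box in 5 and an E-box in 3. The FOXO core TGTTTAC, the E2F motifs TTTCCCGC, TTTGGCGC and TTTCGCGC, the TATA box TATAAA, the CRE motifs TGACGTCA and TAACGTCA and the AP-1 motif TGACTCA were found in none of them. Those motifs occurred in 2.98% (FOXO), 2.32% (E2F), 10.7% (TATA), 1.65% and 0.30% (CRE) and 4.2% (AP-1) of all promoters. A match is a description of the letters and no evidence of a bound site.

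None of the 9 genes shared an exonic base with another annotated gene on its strand. On the opposite strand, CDK4 shares 1369 of its exonic bases with TSPAN31, a tetraspanin gene, and the strand-specific counts of the pair differed in opposite directions. TSPAN31 had 723 counts in DMSO and 840 in omipalisib, with a log2 ratio of 0.39 (0.25 to 0.54). MARCHF9, which overlaps the start of the annotated CDK4 span on the opposite strand, had 0.18 (−0.13 to 0.49). CCND1 shares 497 bases with LTO1 on the opposite strand, whose log2 ratio was 0.18 (0.02 to 0.33), far below that of CCND1 and with an interval that included 0 under RLE scaling. CDK6-AS1 had −0.20 (−0.59 to 0.18). AC008115.3, an intronic transcript within CDKN1B on its strand, had 115 counts in DMSO and 140 in omipalisib, at a log2 ratio of 0.46 (0.09 to 0.83). AVIL, an actin-binding protein gene near CDK4, had 37 counts in DMSO and 99 in omipalisib, at 1.58 (1.04 to 2.18). It was the 1 gene at least 2-fold higher with an interval above 0 among 41 measured neighbours. Of the 41, 13 were higher and 9 lower, beside 26.1% and 28.6% of all measured genes, and nothing is called particular to the neighbours. C6orf132, near CCND3, had a log2 ratio of 1.135 from 9 and 18 counts, but its interval included 0 (−0.055 to 2.511). CDKN2A also passed 2-fold with scaling by total counts. The 3 annotated pseudogenes named after CDK4 and CCND3 had 0 counts in both libraries.

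Of 7 measured genes for other cyclins, kinases and their activator, 5 were lower, and the median log2 ratio of the 7 was −0.56; none was higher, or 1 with scaling by total counts. Beside these and the list counts that follow stand the shares over all measured genes, 28.6% lower and 26.1% higher, and nothing is called particular to a list. CDC25A, the phosphatase that activates CDK2, had 2060 counts in DMSO and 852 in omipalisib, at a log2 ratio of −1.10 (−1.22 to −0.98). CDK2 had −0.56 (−0.65 to −0.47), and the cyclin E genes CCNE1 and CCNE2 had −0.36 (−0.51 to −0.22) and −0.65 (−0.80 to −0.50). CDK3, with 41 and 55 counts, had the highest value, 0.59 (−0.01 to 1.22), and was called higher with scaling by total counts at 0.64 (0.04 to 1.27). Of the cyclin A genes, CCNA2, with 4299 and 2098 counts, had −0.86 (−0.94 to −0.79). The other, CCNA1, with 66 and 46 counts, had −0.34 (−0.92 to 0.22). Of the other CDK inhibitor genes, CDKN1C, for p57, had 4 and 11 counts, under the minimum. Genes for the CDK-activating kinase and for the chaperones that fold CDK4 included 3 lower and none higher of 5; the median was −0.13. They ranged from HSP90AB1 at −0.43 (−0.44 to −0.41) to CCNH at −0.01 (−0.16 to 0.14).

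Of 13 genes for RB-like pocket proteins, E2F factors and their DP partners, 9 were lower and 3 higher, the latter a share near that of all measured genes; the median of all 13 was −0.16. With scaling by total counts, 7 were lower. RB1, the gene for the main substrate of cyclin D kinases, had 1928 counts in DMSO and 1990 in omipalisib. Its log2 ratio was 0.22 (0.13 to 0.31). E2F1 was the lowest at −0.74 (−0.85 to −0.64) and TFDP2 the highest at 0.31 (0.17 to 0.46).

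Of 13 genes for the turnover of p27 and of D cyclins, 8 were lower and 1 was higher; the list's median was −0.12. The lower count was 6 with scaling by total counts and 10 under RLE scaling. SKP2, the F-box protein that marks p27 for degradation, had 3352 counts in DMSO and 2106 in omipalisib, at a log2 ratio of −0.50 (−0.58 to −0.42). CKS1B, its cofactor for p27, was the lowest at −0.57 (−0.66 to −0.48). FBXO31, an F-box protein for cyclin D1, was the highest at 0.14 (0.02 to 0.25), or 0.10 (−0.02 to 0.21) under RLE scaling.

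Among 15 genes for transcription factors known to act on members of the set, 9 were higher and 1 was lower; the median stood at 0.18. Under RLE scaling 7 were higher and 2 lower. The lower gene was MEN1, for menin, at −0.09 (−0.17 to −0.004), and it was not called lower with scaling by total counts. EGR1, an immediate early factor, had 1227 counts in DMSO and 3293 in omipalisib, at a log2 ratio of 1.60 (1.5 to 1.69), and was the 1 gene of this list at least 2-fold higher. FOXO3, a p27 activator restrained by AKT, had 0.31 (0.22 to 0.41). FOXO4, a factor of the same family, had 346 counts in DMSO and 534 in omipalisib, at 0.80 (0.60 to 0.999), and FOXO1 was the lowest at −0.17 (−0.38 to 0.03), or −0.21 (−0.42 to −0.01) under RLE scaling. Of 22 measured p53 targets other than CDKN1A, 7 were higher and 11 lower; here the median was −0.09. With scaling by total counts 8 were higher and 8 lower, so the balance of directions depends on the scaling. They ran from AEN at −0.58 (−0.67 to −0.49) to TP53INP1 at 0.77 (0.58 to 0.97). MDM2, the p53 antagonist, had −0.34 (−0.40 to −0.29), a value near that of CDKN1A.

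**Figure D5:**
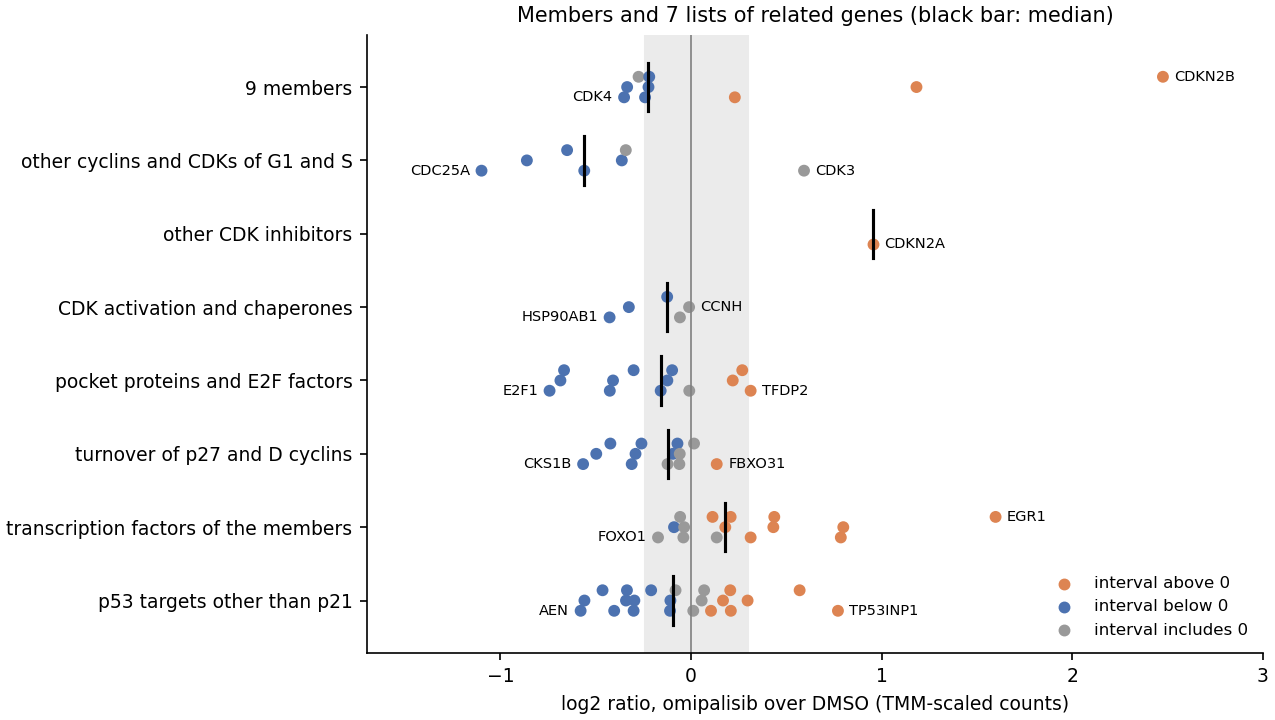
The log2 ratio (horizontal axis) of the 9 genes and of the measured genes in 7 related lists, coloured by whether the counting interval lay above 0, below 0 or included it, with the median of each list as a black bar and the middle 50% of all measured genes in grey. The other cyclins and CDKs have the lowest median, −0.56, and CDKN2B lies farther right than any gene of the lists.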

How the data were processed

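The authors deposited raw gene counts, not normalized, in 1 file per library. Per the file headers, featureCounts 2.0.1 counted read pairs over exons grouped by gene, with both ends aligned, a fragment length check and strand setting 2. No source used here names the aligner. The builds named in the submitters' processing notes are hg19 and GRCh37, but 58468 of the 58516 genes found in GENCODE release 29 lie at its GRCh38 positions, so positions are given as GRCh38.

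Scaling used TMM factors (0.983 for DMSO, 1.02 for omipalisib) from edgeR 4.0.16, run in R 4.3.3, and 0.5 was added to each count before the log2 ratio. Its 95% interval was computed by Clopper-Pearson from the share of a gene's fragments that fell in the omipalisib library. A gene was measured at a summed count of at least 20. With 1 library per group, intervals and the limit of 3 counts behind a 0 cover counting error only. Fragments carried no molecular identifiers, so amplification copies could not be told apart, and the intervals make no allowance for them. The labels name no separate cultures beyond these 2 libraries, so no model was fitted. Ratios between members used exact conditional intervals in SciPy 1.17.1. The procedure was tested on simulated Poisson counts with known ratios. Those counts held no variation between cultures and no amplification copies, so the test bears on the calculation only.

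All 9 members are named. So are the highest and lowest gene of each of 7 lists, CCND2, CDKN2A, CDKN1C, CCNE1, CCNE2, CDK2, RB1, SKP2, FOXO3, MYC and MDM2, and genes that overlap a member or lie within 100 kb with a 2-fold ratio. MTAP, MEN1, CCNA1, CCNA2, FOXO4, CSF1R and the markers printed were chosen after their values were seen. Members and lists were chosen with earlier results of these data known. A pattern over 2 libraries is 1 ratio, so no gene is named for a similar pattern.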

Additional observations from a re-analysis of the deposited data

How the results depend on the processing

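The alternatives were 4 other scalings, an added count of 2, the DMSO library thinned to the depth of the other, and removal of a trend with gene length. Under these 7 settings all 63 values for the 9 genes kept their direction and their side of 0, or for CDKN2D an interval that included 0. CDKN2B ranged from 2.44 to 2.55, CCND1 from 1.14 to 1.24, CDKN1B from 0.19 to 0.28 and CDK4 from −0.39 to −0.30. The counts of higher and lower members were equal under all of these and with no minimum count or a minimum of 100. With the minimum of 100, 274 genes (2.22%) were at least 2-fold higher, against 629, because fewer low-count genes were tested. Likewise 61 (0.495%) were at least 2-fold lower, against 202. Of 30 other named genes followed through the 7 settings, 5 changed their call under at least 1 setting (CDK3, MTAP, FBXO31, FOXO1 and LTO1), and none reversed. MEN1, CCNA1, CCNA2, FOXO4, C6orf132 and the markers other than CSF1R were not among the 30. Of 70 list counts, 66 stayed within 1.5 times; MEN1 was not lower with total counts, where that list's lower count was 0, and under RLE scaling it was 2. Without division by length, CCND1 was 23.0% and 44.1% of the D cyclins and CDK4 23.5% and 21.9% of the CDK4 and CDK6 counts. No paired analysis was possible because each group has 1 library.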
